A study of Mus musculus with 10 samples.

Results

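Hox genes encode homeodomain transcription factors that assign position along the head-to-tail axis of the embryo and along the limbs. In the mouse they lie in 4 clusters, HoxA on chromosome 6, HoxB on chromosome 11, HoxC on chromosome 15 and HoxD on chromosome 2. Within a cluster all members are transcribed in the same direction and their order on the chromosome follows the order of their expression domains, with the low paralog numbers nearest the head. Fibroblasts keep much of the positional Hox code of the body site from which they were taken. Trithorax proteins, which include the KMT2 methyltransferases and their subunit ASH2L, maintain active Hox genes, and Polycomb proteins maintain the silent ones.

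The 38 Hox genes described here were taken by name from the annotation, without using any measured value: 10 in HoxA, 10 in HoxB, 9 in HoxC and 9 in HoxD. They were examined in a list of 153924 accessible sites made by ATAC-seq, in which a transposase inserts adapters into open chromatin. The cells were immortalized mouse embryo fibroblasts (iMEF) of the clone NG3, derived from a single cell by limiting dilution. Both alleles of Ash2l had been floxed and deleted through Cre-ER and 4-hydroxytamoxifen, and a lentiviral FKBP12(F36V)-HA2-ASH2L fusion of the human protein took the place of the endogenous one. All 10 libraries carried this background, also the controls. The libraries formed 5 groups of 2 replicates: control cells, labelled WT, which received ethanol as the vehicle, and cells given dTAG-13, which links the fusion to Cereblon for degradation, for 30 min, 4 h, 8 h or 24 h. The deposited list pools them, and a site is described by its position alone. It therefore shows where a site was listed in the series as a whole, and neither a level per library nor a change with dTAG-13 can be read from it. The depth behind a site is unknown, and no comparison below has a test.

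As a check of the cell type, a site was listed within 1 kb of a start of all 11 fibroblast markers examined, among them Col1a1, Col3a1, Pdgfra and Thy1. The same was true for 7 of 10 markers of other lineages, with Ptprc, Cd3e and Nanog lacking one and Cdh1, Epcam, Krt8, Pecam1, Cdh5, Pou5f1 and Sox2 having one. A listed site at a start was thus a poor guide to lineage, and it says nothing about whether a gene was transcribed.

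At least one annotated start lay no more than 1 kb from a site in 36 of the 38 Hox genes, which is 94.7% (Wilson 95% interval, 82.7 to 98.5%, for the number of genes only). Hoxa6 and Hoxb8 had none. Among all 21938 protein-coding genes on the chromosomes the share was 70.8%, and among the 12929 with a CpG island at a start it was 95.7%. CpG islands, stretches rich in the CpG dinucleotide that mark most broadly used promoters, lay within 1 kb of a start of 33 Hox genes, and 31 of these 33 had a site. The share of Hox genes with a site was therefore near that of other genes with an island.

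The 2 genes without a site belong to the central paralogs. Hoxa6 had a single annotated start, 2452 bp from the nearest site, although its promoter was among the CpG-rich ones. Its neighbour Hoxa5, a regulator of lung and trachea formation, had a similar CpG content and a site 1158 bp wide over the start. Hoxb8, which acts in the nervous system and in myeloid progenitors, had 3 annotated starts, the nearest 1478 bp from a site that lay in an exon further downstream. Hoxd8, its paralog, had a site of 1853 bp at the start, the widest in HoxD. The RefSeq sequences around these starts, from 250 bases before to 50 bases after on GRCm38.p6, are given to compare them, with each CpG in capitals.
Hoxa6 promoter window, chr6:52208623-52208922, minus strand: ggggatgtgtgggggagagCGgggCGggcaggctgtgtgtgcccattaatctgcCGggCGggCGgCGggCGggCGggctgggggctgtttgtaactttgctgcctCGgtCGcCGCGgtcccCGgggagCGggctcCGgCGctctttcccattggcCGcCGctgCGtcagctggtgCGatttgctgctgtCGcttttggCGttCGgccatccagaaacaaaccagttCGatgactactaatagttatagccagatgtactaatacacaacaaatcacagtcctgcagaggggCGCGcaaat
Hoxa5 promoter window, chr6:52204538-52204837, minus strand: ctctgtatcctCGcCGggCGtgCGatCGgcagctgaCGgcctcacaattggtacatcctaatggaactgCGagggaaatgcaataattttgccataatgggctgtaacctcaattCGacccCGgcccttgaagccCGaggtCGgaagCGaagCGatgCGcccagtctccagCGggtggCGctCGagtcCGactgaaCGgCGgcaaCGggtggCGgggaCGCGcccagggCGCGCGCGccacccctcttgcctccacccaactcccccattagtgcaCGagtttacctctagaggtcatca
Hoxb8 promoter window, chr11:96281655-96281954, plus strand: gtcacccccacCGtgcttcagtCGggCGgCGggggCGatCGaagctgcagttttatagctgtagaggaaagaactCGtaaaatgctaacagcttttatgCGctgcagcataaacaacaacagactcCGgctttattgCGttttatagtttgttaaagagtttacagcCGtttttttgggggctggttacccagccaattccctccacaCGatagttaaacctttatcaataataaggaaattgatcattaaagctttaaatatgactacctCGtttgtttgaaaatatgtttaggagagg
Hoxd8 promoter window, chr2:74704365-74704664, plus strand: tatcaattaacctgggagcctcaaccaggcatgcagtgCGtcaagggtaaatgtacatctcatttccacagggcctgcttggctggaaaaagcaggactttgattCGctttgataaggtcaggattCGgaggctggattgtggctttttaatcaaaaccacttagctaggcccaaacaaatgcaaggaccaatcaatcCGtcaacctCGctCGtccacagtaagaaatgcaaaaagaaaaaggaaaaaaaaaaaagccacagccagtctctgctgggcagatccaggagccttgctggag
The Hoxa6 window held 26 CpGs and the Hoxa5 window 29, and none of the first but 99.7% of the second lay inside sites. The Hoxb8 window, at its outermost start, 2298 bp from a site, held 13 and was outside sites. The Hoxd8 window held 6 and was 79.3% covered. In all 32851 RefSeq promoter windows of this length the median was 7 CpGs, 16.9% held 26 or more and 37.9% held 13 or more. The number of CpGs did not order these 4 promoters by whether a site was listed. They were picked because Hoxa6 and Hoxb8 lacked a site, so they do not show the relation over all Hox windows.

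Of the 38 Hox genes, 22 had at least one such promoter sequence, 24 windows in all, with 4 to 45 CpGs and a median of 14.5. The window of Hoxa13, a gene for the distal limb and the genital tubercle, held 45 and was 48.3% covered. That of Hoxd13, which shapes the digits, held 37 and was covered completely. The windows of Hoxa9 and Hoxd4, with 4 CpGs each, and those of Hoxa7, Hoxb4 and Hoxc4, with 9, 14 and 9, were outside sites. All 5 held fewer than the median of 14.5, as did the uncovered window of Hoxb8, with 13. The window of Hoxa6, also uncovered, held 26. Covered windows lay on both sides of the median. A window of Hoxd11 that also held 4 was covered completely, and that of Hoxa2, with 9, was 87.7% covered. Hoxa9, Hoxd4, Hoxa7, Hoxb4 and Hoxc4 each had a site within 1 kb of another or the same start.

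**Figure D1:**
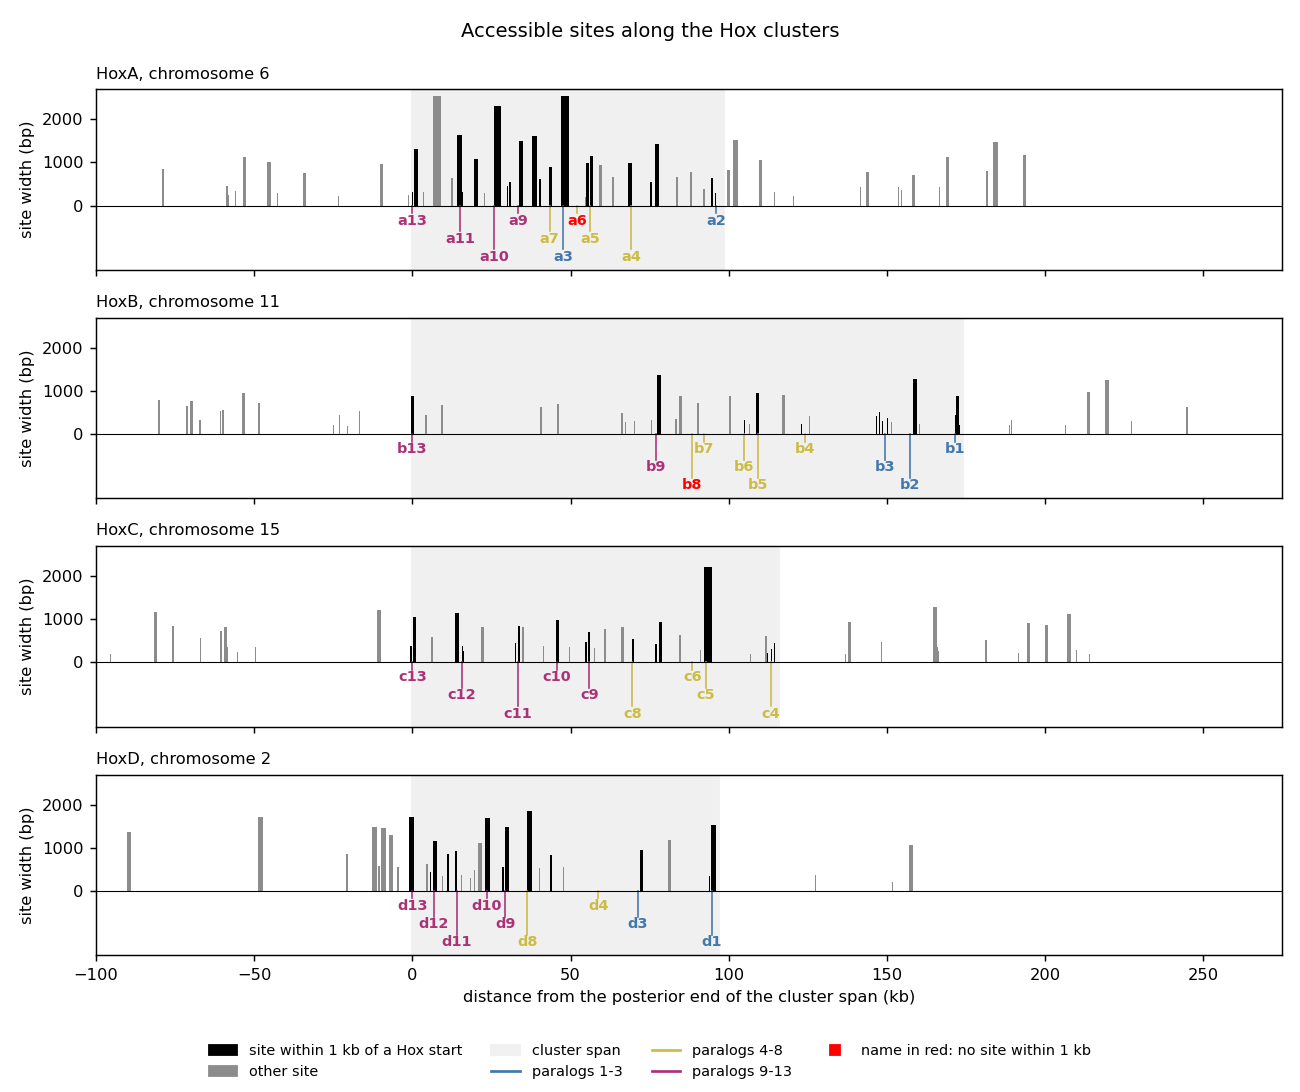
Accessible sites along HoxA, HoxB, HoxC and HoxD and 100 kb on each side, drawn by distance in kb from the posterior end of each span (x axis) with bar height equal to site width in bp (y axis). Black bars lie within 1 kb of a start of one of the 38 Hox genes, grey bars do not, shading marks the span, names stand at the principal start, and the red names a6 and b8 are the genes without a site. Sites crowd the posterior side of HoxA and HoxD, while HoxB holds narrow sites and long empty stretches.

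From the start of the first to the end of the last of the 38 genes, the 4 spans measured 485 kb in all and held 118 sites. They covered 83.5 kb, or 17.2% of the bases, against 4.18% of the sequenced genome. The density was 24.3 sites per 100 kb, against 5.80 in the genome. The sites themselves were of about the width found elsewhere, with a median of 569 bp in the spans and 619 bp in the whole list, and 19.5% against 22.8% reached 1 kb. With 100 kb on each side the windows held 199 sites.

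The clusters differed in how much of them was covered. HoxA was the densest, with 32 sites in 98.5 kb and 29.5% of its bases inside sites, 7.48 times the share on chromosome 6. HoxD followed with 26 sites in 96.8 kb and 20.2%, 4.30 times the share on chromosome 2. HoxC held 28 sites in 115.8 kb and 15.6%, 2.32 times the share on chromosome 15. HoxB held 32 sites in 173.9 kb and 9.74%, 1.71 times the share on chromosome 11. Chromosome 15 had the highest site density of these 4 chromosomes, 9.97 per 100 kb, against 5.46 on chromosome 6, so the size of each ratio depends on the chromosome taken as reference.

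The same shares were set against 27247 bins of 100 kb along the chromosomes, which had a median of 3.22%. Of these bins, 9.75% were covered at least as much as HoxB, the least covered of the clusters. For HoxC the number was 184 bins, for HoxD 14 bins and for HoxA 0, the most covered bin reaching 25.6%. The bins lay on a fixed grid and the spans ended at genes, so a span was not diluted by its flanks as a bin can be. With 100 kb on each side included, the shares were 15.8% for HoxA, 10.3% for HoxC, 10.7% for HoxD and 7.49% for HoxB.

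**Figure D2:**
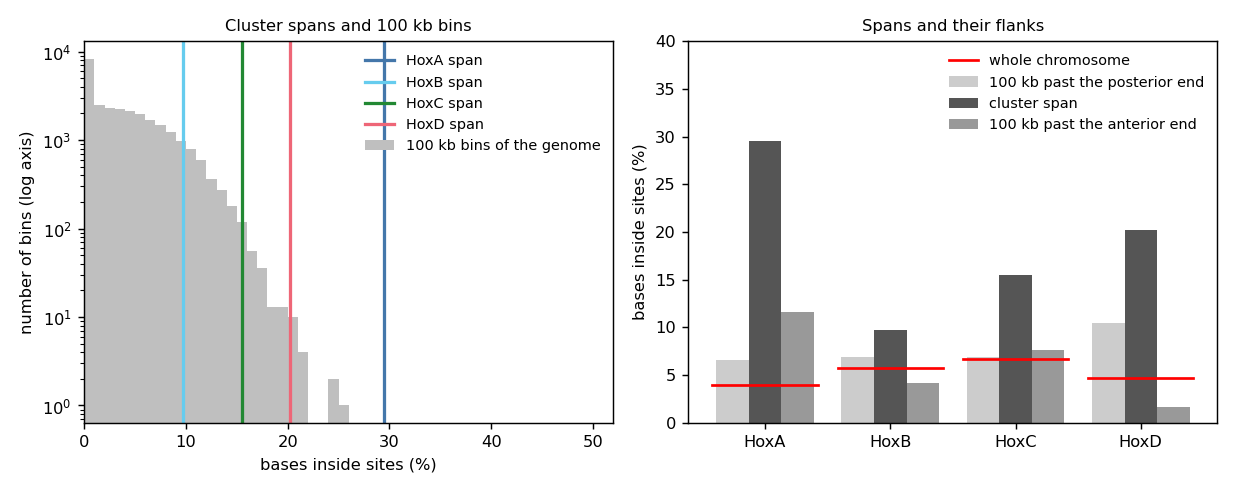
Left, the number of 100 kb bins (log axis) by the percentage of their bases inside sites, with a line for each cluster span. Right, the percentage of bases inside sites in each span and in the 100 kb past its posterior and anterior ends, with a red line for the whole chromosome. HoxA, at 29.5%, lies to the right of every bin, and the anterior flank of HoxD, at 1.66%, is below its chromosome.

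HoxB includes a long stretch without Hox genes. Hoxb13, which acts in the prostate and the tail end of the spinal cord, is set apart from Hoxb9 by 74.0 kb, and that stretch held 8 sites and was 5.11% covered. From Hoxb9 to Hoxb1 the cluster measured 96.8 kb, close to HoxA and HoxD, and held 23 sites, or 23.8 per 100 kb. Even there 12.98% of the bases were inside sites, below the other clusters. HoxB sites were narrow, with a median of 422.5 bp against 659.5 bp in HoxA, 567 bp in HoxC and 586.5 bp in HoxD. Only 2 HoxB sites reached 1 kb, against 10 in HoxA, 8 in HoxD and 3 in HoxC.

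**Figure D3:**
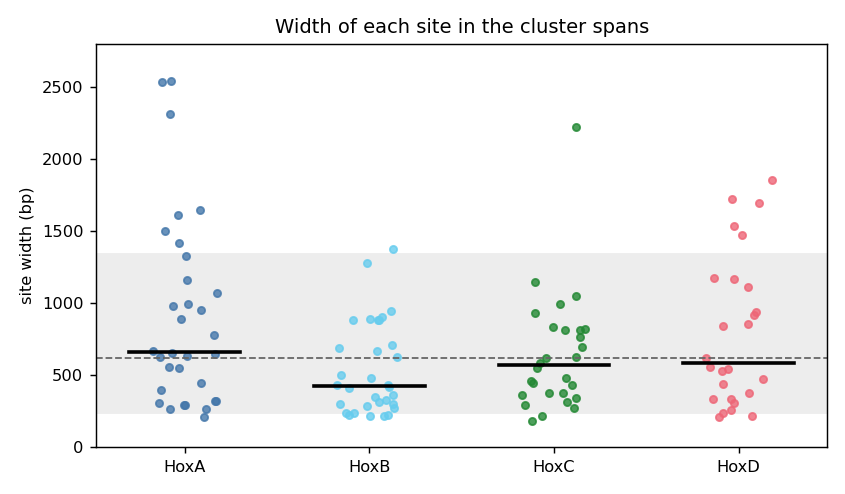
Width in bp of each site in the spans of HoxA (32 sites), HoxB (32), HoxC (28) and HoxD (26), with horizontal scatter added for legibility. Black bars are medians, the dashed line is the median of all sites, 619 bp, and the shading runs from the 10th to the 90th percentile of all sites, 237 to 1338 bp. The medians of HoxA, HoxC and HoxD lie near that of all sites, HoxB lies lower at 422.5 bp, and HoxB has the fewest sites of 1 kb or more.

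Sites were spread unevenly along HoxD and HoxA. On the posterior side of the midpoint of HoxD, 31.2% of the bases were inside sites, against 9.14% on the anterior side. In HoxA the values were 38% and 21%. HoxC, with 16.6% and 14.5%, and HoxB, with 8.04% and 11.4%, were more even. The flanks did not follow one order. In HoxD 10.5% of the 100 kb past the posterior end and 1.66% of the 100 kb past the anterior end was covered, and in HoxB 6.92% and 4.12%. In HoxA the posterior flank was at 6.58% and the anterior one at 11.6%, and in HoxC they were at 6.85% and 7.64%. The posterior flank of HoxD holds Evx2, a homeobox gene next to the cluster, with a site of 1465 bp, and Lnpk, with a site of 1356 bp. On the other side lies Mtx2, with a site of 1071 bp.

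Each cluster had stretches without any site. In HoxA the longest measured 5837 bp, at chr6:52185764-52191600, between the inner Hoxa3 starts and the start of Hoxa4. In HoxD it measured 15573 bp, at chr2:74724576-74740148, and took in the principal starts of Hoxd4 and Hoxd3. In HoxC it measured 12179 bp, at chr15:103015660-103027838, beyond Hoxc5, and held the outer start of Hoxc4. In HoxB it measured 30568 bp, at chr11:96204154-96234721, between Hoxb13 and Hoxb9, and the next longest, 20745 bp at chr11:96320033-96340777, held the 2 outer starts of Hoxb3. HoxA had 2 stretches of more than 5 kb, HoxD 4, HoxC 8 and HoxB 9.

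For a finer view, the share of the 1 kb on each side of the principal start that lay inside sites was taken for each gene. The principal start is that of the best ranked coding transcript in the annotation. Its median was 45.2% over the 38 Hox genes, from 0 to 94.1%, against 67.3% over coding genes with an island and 51.3% over all coding genes. The principal start itself was inside a site in 24 of 38 Hox genes, 63.2%, against 84.3% of the coding genes with an island. Among the 33 Hox genes with an island it was 22. By count, Hox starts thus stood below other island starts in being inside a site and beside them in having a site within 1 kb.

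**Figure D4:**
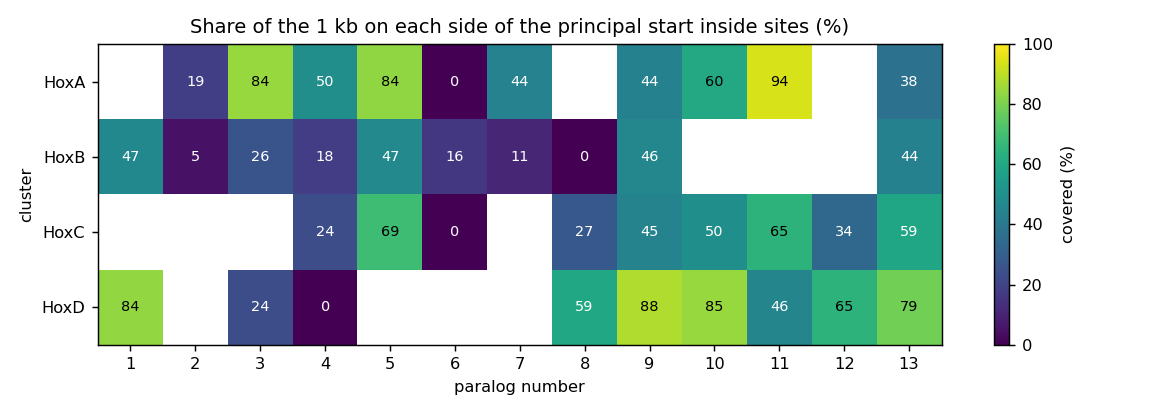
Percentage of the 1 kb on each side of the principal start inside sites, by cluster (rows) and paralog number (columns). Blank squares have no gene among the 38, and the colour scale runs from 0 to 100%. Paralogs 9 to 13 all lie at 33.6% or more, and the 4 squares at 0 are Hoxa6, Hoxb8, Hoxc6 and Hoxd4.

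The 2 sides of the starts differed. In 27 of 38 Hox genes, 71.1%, more bases were covered in the 1 kb downstream than in the 1 kb upstream, against 57.7% of the coding genes with an island. The median was 213.5 bp upstream and 621 bp downstream in Hox genes, against 559 bp and 753 bp in genes with an island. At 500 bp upstream, 26.3% of the Hox genes and 57.7% of the island genes were inside a site, and at 500 bp downstream 63.2% and 73.8%. At 1 kb from the start the order was turned on both sides, with 23.7% and 17.5% upstream and 42.1% and 30.3% downstream.

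**Figure D5:**
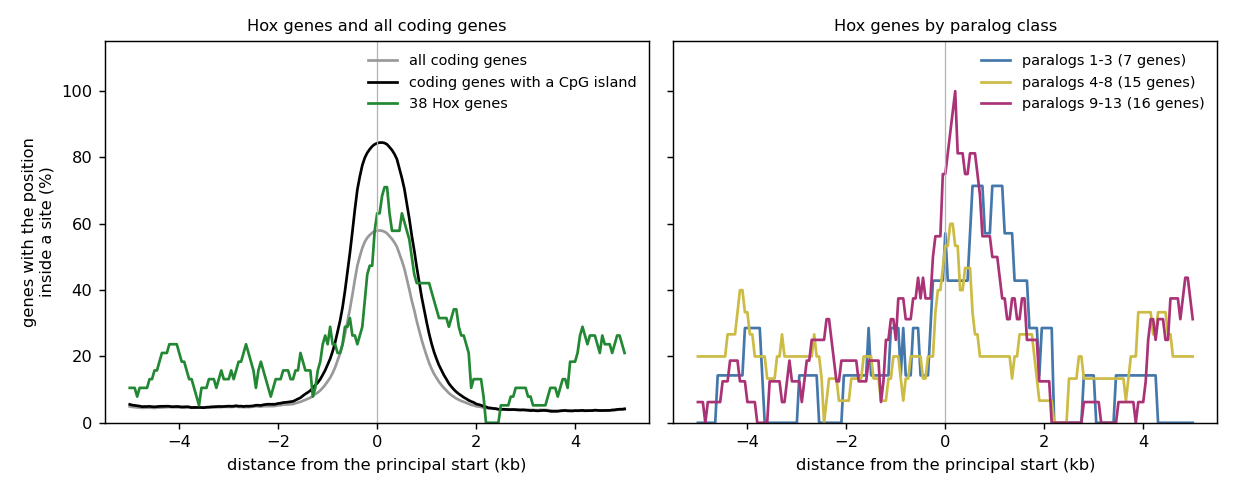
Percentage of genes with a position inside a site, by distance in kb from the principal start (negative values upstream). Left, all coding genes, those with a CpG island and the 38 Hox genes; right, the Hox genes by paralog class. The Hox curve peaks at 71.1%, 150 bp downstream, below the 84.5% of island genes. Paralogs 9 to 13 reach 100% at 200 bp downstream, where island genes are at 83.9%.

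The paralog classes differed in these measures. All 16 posterior genes, paralogs 9 to 13, had a site within 1 kb of the principal start, and 12 of these starts were inside one. The covered share ran from 33.6 to 94.1% with a median of 54.4%. The 7 anterior genes, paralogs 1 to 3, all had a site too, with 4.70 to 84.4% and a median of 25.9%. Of the 15 central genes, paralogs 4 to 8, 13 had a site at some start and 11 at the principal one, and the share ran from 0 to 83.5% with a median of 23.5%. All 16 posterior genes were inside a site at 200 bp downstream, against 53.3% of the central and 42.9% of the anterior ones. At that distance 83.9% of the coding genes with an island and 71.1% of the 38 Hox genes were inside one. This distance was chosen because the posterior curve peaks there. All 29 annotated starts of the posterior genes had a site within 1 kb, against 23 of 33 for the central and 15 of 20 for the anterior genes. For other coding genes, the shares of principal starts and of single starts with a site within 1 kb were not computed.

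The posterior genes of HoxA had a median of 52.1% and the anterior ones 51.5%. Hoxa11, needed with Hoxd11 for the forearm, had the highest value of all 38, 94.1%, from a site of 1646 bp and part of one of 320 bp. Hoxa10, which patterns the uterus and the lumbar spine, was at 60.2% with a site of 2311 bp over its principal start and a further one of 1073 bp at its outer starts. Hoxa9, known for its part in blood progenitors and leukaemia, was at 44.0%, its site of 1502 bp beginning 120 bp downstream of the start. Hoxa13 was at 37.6%. The wider picture of this end of HoxA includes a site of 2538 bp between Hoxa11 and Hoxa13, at chr6:52251869-52254406, which touched no annotated start.

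Among the other HoxA genes, the values did not follow paralog number. Hoxa5 was at 83.5%, Hoxa4 at 49.6% and Hoxa7 at 44.4%, with Hoxa6 at 0 between them. Hoxa3, required for the thymus and parathyroid, was at 84.4% from the widest site of all clusters, 2546 bp at chr6:52211258-52213803. That site lay at the outer Hoxa3 starts, between Hoxa6 and Hoxa7, and a separate site of 1420 bp lay at an inner one. Hoxa2, which sets the identity of the second pharyngeal arch, was at 18.7% from a site of 291 bp and part of one of 648 bp upstream.

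In HoxB the values had a median of 22.0% and a maximum of 47.0%, against a median of 45.2% over the 38 genes. Hoxb5 was at 47.0% from a site of 941 bp, Hoxb1, which specifies a hindbrain segment, at 46.7%, Hoxb9 at 46.5% and Hoxb13 at 44.0%. Hoxb9 had the widest site of the cluster, 1378 bp at chr11:96271528-96272905, starting 71 bp downstream. Hoxb3 was at 25.9%, Hoxb4, which supports blood stem cells, at 18.0%, Hoxb6 at 16.3% and Hoxb7 at 10.8%. Hoxb2 was at 4.70%, since its site of 1281 bp began 907 bp downstream of the principal start, just inside the 1 kb window. Hoxb8, at 1478 bp, was the nearest gene outside it. Only 4 of 10 principal starts in HoxB were inside a site, against 8 of 10 in HoxA, 7 of 9 in HoxD and 5 of 9 in HoxC.

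In HoxC the widest site measured 2221 bp, at chr15:103013439-103015659, over the start of Hoxc5, and Hoxc5 was at 68.8%. Hoxc11 was at 64.5%, Hoxc13, known for its part in hair and nails, at 59.1%, Hoxc10, a lumbar gene, at 49.6%, Hoxc9, a thoracic one, at 44.8% and Hoxc12 at 33.6%. Hoxc8, which acts in brachial motor neurons, was at 27.4% and Hoxc4 at 23.5%. Hoxc6 was at 0, with its principal start 2497 bp from a site, and had a site only at its outer starts. The start of Hoxc5 that lies far upstream shared its site of 993 bp with Hoxc10.

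In HoxD all 5 posterior genes had a principal start inside a site. Hoxd9 was at 88.1%, Hoxd10 at 84.6%, Hoxd13 at 78.6%, Hoxd12 at 64.8% and Hoxd11 at 45.7%. Hoxd8 was at 59.4%, and at the other end Hoxd1 was at 83.9% with a site of 1535 bp. Between them Hoxd3 was at 23.5%, its site of 938 bp beginning 530 bp downstream. Hoxd4 was at 0, its principal start 2499 bp from a site, and was counted as having one only through an outer, noncoding start that it shares with Hoxd3 and a site of 839 bp. Counting principal starts alone, 34 of the 38 genes had a site within 1 kb, and the 4 without were Hoxa6, Hoxb8, Hoxc6 and Hoxd4. The share of other coding genes by this count was not computed.

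Several genes had more than one site. There were 13 genes with a single site at their starts, 15 with 2 and 8 with 3 or more. The last group was 21.1% of the 38, against 10.2% of the coding genes with an island, whose median was 1 site. Together they had 67 distinct sites, 66 of them in the spans and the other just past Hoxc13. Overlapping transcripts are frequent here, so that a site near one gene can lie in an intron of another. Hoxc5 and Hoxc10 shared a site, as did Hoxd3 and Hoxd4, and such a site cannot be assigned to either gene.

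Of the 118 sites in the spans, 66 lay at a Hox start, 14 only at another annotated start and 38 at none. By their middle, 50 were in an exon, 48 in an intron and 20 outside genes. Sites at Hox starts had a median width of 765.5 bp, against 1180.5 bp for sites at the starts of all coding genes. Of these 66 sites, 43 overlapped a CpG island, against 9 of the 38 at no start. HoxB had 13 sites away from any start, HoxC 12, HoxD 9 and HoxA 4. In HoxB they measured 234 to 904 bp, in HoxC 182 to 821 bp, in HoxD 210 to 1113 bp and in HoxA 208 to 2538 bp. The widest of them in HoxB, chr11:96311176-96312079, lay between Hoxb5 and Hoxb4. It held both a HOX-PBX match and a match to the wider AP-1 pattern, described with the motifs. In HoxC the widest, chr15:102942955-102943775, lay between Hoxc12 and Hoxc11, and in HoxD, chr2:74689185-74690297, between Hoxd11 and Hoxd10. The spans held 75 CpG islands, 56 of them, 74.7%, overlapped by a site, against 79.0% of the 16983 islands of the genome.

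The clusters also encode noncoding RNAs, and of 13 examined 9 had a site within 1 kb of a start. They included Hottip, at the posterior end of HoxA, whose nearest site was 647 bp away, and Hotairm1, at its anterior end, with a site of 1517 bp. The start of Hotair, transcribed from HoxC and known for its part in silencing, lay 3955 bp from the nearest site. The nearest start of Hoxb5os lay 1345 bp away, although sites lay within its body. The starts of Mir10b and Mir196a-2 were 1495 and 2323 bp away. Hoxaas2, Hoxaas3, Hoxb3os, Mir10a, Mir196a-1, Mir196b and Mir615 had one. The start of a microRNA entry is the end of its hairpin and not the start of its primary transcript. The share over all noncoding RNAs was not computed, so the 9 of 13 cannot be read as high or low.

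The microRNAs are given because copies in different clusters share a seed (bases 2 to 8, in capitals) and differed in whether a site covered them. The sequences are the mature 5p and 3p forms of RefSeq.
mmu-miR-10a-5p (Mir10a): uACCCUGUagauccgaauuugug
mmu-miR-10b-5p (Mir10b): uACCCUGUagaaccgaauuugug
mmu-miR-196b-5p (Mir196b): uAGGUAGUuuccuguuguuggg
mmu-miR-196a-5p (Mir196a-1): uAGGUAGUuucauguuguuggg
mmu-miR-615-3p (Mir615): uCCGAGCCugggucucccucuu
A site of 221 bp, chr11:96317187-96317407, lay over 22 of the 23 bases of miR-10a next to Hoxb4. The middle of the matching sequence of miR-10b, next to Hoxd4, was 1510 bp from a site and within the longest empty stretch of HoxD. All 22 bases of miR-196b, in HoxA, were inside a site. The copies of miR-196a have the same mature sequence. Its middle was 466 bp from a site in the HoxB copy and 2348 bp in the HoxC copy. miR-615 lay inside the wide site at Hoxc5.

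Sequence matches in the sites were counted on both strands. HOX proteins bind DNA together with PBX partners, and the letters TGATTNAT, a composite HOX-PBX site, were found in 11 of the 118 sites, 9.32%, against 11.6% of all sites and 8.11% of those at coding starts. Per 100 kb of site there were 14.1 matches in the spans, 18.2 in all sites and 7.59 in sites at coding starts. Of the 12 matches, 7 lay in HoxA, 2 in HoxB, 1 in HoxC and 2 in HoxD. The matches within 150 bp of a Hox start are shown with 6 bases on each side and the match in capitals.
Hoxa2, 104 bp from a start, chr6:52164935-52164942, plus strand: tctgttTGATTGATccaaaa
Hoxa3, 131 bp from a start, chr6:52183986-52183993, plus strand: agatggTGATTTATttttgt
Hoxd11, 73 bp from a start, chr2:74682250-74682257, minus strand: tcatctTGATTGATtctggt
AP-1 factors of the FOS and JUN families, abundant in cultured fibroblasts, bind TGACTCA and TGAGTCA. The pattern counted was the wider TGANTCA, which also admits TGAATCA and TGATTCA. It was found in 14 of the 118 sites, 11.9%, against 37.9% of all sites and 27.0% of those at coding starts. Shares for the stricter AP-1 letters alone were not computed. Per 100 kb the numbers were 18.8, 69.6 and 28.7. Within 150 bp of a start, Hoxd11 had a TGACTCA match, and Hoxc9 and Hoxc10 had TGAATCA matches.
Hoxd11, 19 bp from a start, chr2:74679538-74679544, plus strand: atgaaaTGACTCAgaatcc
Hoxc9, 92 bp from a start, chr15:102977124-102977130, plus strand: agccatTGAATCAgagcac
Hoxc10, 148 bp from a start, chr15:102966648-102966654, plus strand: accgtcTGAATCAtcaagg
The letters of the 2 motifs can share bases, and 2 of the 12 HOX-PBX matches did so with an AP-1 match. AP-1 matches were thus fewer per length in the Hox spans than in either comparison set, in counts too small to compare the clusters. The sets were not matched for width or base composition.

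CTCF marks boundaries between chromatin domains, and boundaries within HoxA have been mapped to its sites. An exact match to the CTCF consensus used here was found in 0 of the 118 sites, against 4.49% of all sites and 3.54% of those at coding starts. For the number of sites only, 0 allows a share of up to 2.54% by the limit of 3 sites. The Wilson 95% interval allows 3.15%. Both limits treat the sites as independent, which neighbours within 4 clusters may not be. Whether the spans hold fewer matches than other sites was not tested. In the whole of the 4 spans there was 1 exact match, outside any site.
Between Hoxb13 and Hoxb9, 1144 bp from a site, chr11:96265875-96265886, minus strand: cctgtcCCACTAGGGGGCcctaga
With 1 mismatch allowed, a choice made after these values were seen, 10 of 118 sites held a match, 8.47%, against 19.1% of all sites. Of these, 5 were in HoxA, 3 in HoxD, 1 in HoxB and 1 in HoxC. Inside or outside sites, the HoxA span held 7 such matches, 5 of them in sites, HoxD 5 with 4 in sites, HoxB 16 with 1 and HoxC 6 with 1. A match is a run of letters only and does not show binding. The direct repeat spaced by 5 bases that retinoic acid receptors bind was found in 0 of 118 sites, against 0.246% of all sites.

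Genes that act with or on the Hox clusters mostly had a site. All 8 HOX cofactors reported here, Pbx2, Pbx3, Pbx4, Meis1, Meis2, Meis3, Pknox1 and Pknox2, had one within 1 kb of a start, 2548 bp wide at Pbx3 and 2336 bp at Meis1. On the Trithorax side, 6 of 7 genes had one, namely Kmt2a, Kmt2b, Ash2l, Wdr5, Rbbp5 and Dpy30. The nearest site of the list examined to the other, Men1, was 152901 bp away. Rows of the deposited list may be missing from the copy examined there, so that Men1 may have a site not analysed here. All 9 Polycomb genes examined had one, among them Ezh2, Eed, Suz12 and Bmi1. Of 9 genes of retinoic acid signalling, which sets the anterior limits of Hox expression, 7 had one, and Rxrg and Cyp26c1 had none. Of 8 ParaHox and Evx genes, the closest relatives of the clusters, 6 had one, with Evx1 and Evx2 at 1124 and 1465 bp, and Pdx1 and Cdx1 had none. All 21 other homeobox genes examined, such as Dlx5, Msx1, Prrx1 and Pitx1, had one. These counts are to be read against the 70.8% of all coding genes and 95.7% of those with an island.

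Of 10 further coding genes with a start in the spans or within 100 kb of them, 7 had a site. These were Evx1, Evx2, Lnpk, Mtx2 and Ttll6, and the gene models Gm28308 and 5730596B20Rik, which overlap HoxA. The nearest starts of Calcoco2 and Skap1, on either side of HoxB, lay 1905 and 2960 bp from a site. That of Gm28230, which overlaps Hoxd3, lay 2153 bp from one, although sites lay within its body. Skap1 and Gm28230 had a CpG island and Calcoco2 had none.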

How the data were processed

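ATAC-seq of 10 libraries was deposited by the authors as 1 pooled list of 153924 sites with chromosome, start and end and no other column, so the only values used were positions. Per the labels and the study's methods, reads were trimmed with Trim Galore and aligned to mm10 with BWA, SAMtools and Picard handled the alignments and merged replicates, and narrow peaks were called with MACS2. DESeq2 was used by the authors and not here. Versions, the peak threshold, the treatment of transposase offsets and how sites of the groups were joined are not given in the sources used here. A pooled list holds a site whatever the number of libraries that showed it.

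Starts were read as counted from 0 and are given from 1. All 153682 sites on chromosomes 1 to 19, X and Y were used, and 0 ended past a chromosome of GRCm38.p6. Gene starts came from GENCODE M21, and those of RefSeq were an alternative. A site counted for a gene if it overlapped the 1000 bp on either side of any start. CpG islands were segments of at least 200 bp with a GC fraction of 0.5 and an observed to expected CpG ratio of 0.6, with repeats masked. Python 3.11.15 with NumPy and SciPy was used, and the counting was tested on simulated sites. No test was made, because there is no value per library. Genes named are the members, every list gene without a site, and coding neighbours, with list genes that had a site added as examples. Sites named are the widest, the longest empty stretches, and, as counts with examples, those at no start and those with motif matches. The members and lists were chosen with earlier results of these data known. Some genes are not reported here.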

Additional observations from a re-analysis of the deposited data

How the results depend on the processing

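No paired analysis was possible because the 10 libraries are pooled, so neither replicates nor dTAG-13 times could be left out or compared. The 36 Hox genes with a site became 35 with a window of 500 bp, 37 with 2 kb and 36 with RefSeq starts, where Hoxd4 and not Hoxb8 lacked one. With sites of 1 kb or more only, 18 remained. Without the sites narrower than the median of 619 bp there were 20 in HoxA, 12 in HoxB, 13 in HoxC and 13 in HoxD, covering 25.3%, 6.01%, 10.7% and 15.2% of the spans. With 100 kb on each side the covered shares were 15.8%, 7.49%, 10.3% and 10.7% for HoxA, HoxB, HoxC and HoxD, and with 50 kb 19.0%, 8.13%, 10.6% and 14.7%. HoxA was the most and HoxB the least covered under each of these settings. Stricter islands lay at 22 Hox genes and islands without repeat masking at 36, against 33. Sites with a CTCF match numbered 0 in the middle 200 bp also, and 10 with 1 mismatch allowed. Choices added after seeing the data, the principal start alone and that start inside a site, gave 34 and 24 genes.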
